A study of Mus musculus with 130 samples.

Results

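The genes described here are the transcripts of the mouse major histocompatibility complex (MHC), taken as every gene whose symbol begins with H2-. This rule found 45 of the 35274 genes in the table of the diet study and 45 of the 35711 genes in the table of the strain panel. All 45 lie on chromosome 17 of GRCm38, between positions 33974659 and 37483552. Of these, 34 are annotated as protein coding and 11 as pseudogenes or polymorphic pseudogenes. By position and name 32 are class I genes (H2-K, H2-D and the Q, T and M regions) and 12 are class II genes (H2-A, H2-E, H2-DM, H2-DO and H2-P). The remaining member, H2-Ke6, carries the prefix by position only and encodes a dehydrogenase rather than an antigen-presenting chain.

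Livers of male mice were profiled by RNA sequencing in 2 experiments. In the diet study, C57BL/6J mice received chow, feed holding 50 ppm, 500 ppm or 2% (20,000 ppm) iron, the last as carbonyl iron, or 2% carbonyl iron with cellulose as fiber source, and each of the 5 groups had 3 mice. In the panel, 115 mice of 114 strains were given 4 weeks of chow and then 6 weeks of high iron, so every panel mouse was on the 2% iron diet, and only C57BL/6J was also studied on other diets. The panel holds 56 BXD strains (recombinant inbred lines of C57BL/6J and DBA/2J), 20 AXB/BXA strains (A/J and C57BL/6J), 4 BXH strains (C57BL/6J and C3H/HeJ), 3 CXB strains (BALB/cByJ and C57BL/6J) and 31 other inbred strains. Each strain is 1 mouse, except 129X1/SvJ with 2, so strain and mouse cannot be told apart for a single strain. Mouse numbers within a diet group only name the libraries.

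Class I molecules present peptides from inside the cell to CD8+ T cells and natural killer cells. Each consists of a polymorphic heavy chain and the light chain B2m, and almost every cell, hepatocytes included, displays them. Class II molecules are heterodimers of the A or the E alpha and beta chains, are assembled with the invariant chain Cd74, are loaded with peptide with the help of H2-DM and H2-DO, and are found mainly on dendritic cells, macrophages and B cells. The H2 region is among the most polymorphic in the genome and is inherited as a block, the haplotype; C57BL/6J carries the haplotype called b, which lacks a working promoter of the E alpha gene, here annotated as H2-Ea-ps. The reference transcripts are those of C57BL/6J, and the labels give no haplotype for any strain.

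Class I promoters are known for a conserved block with an enhancer A element, bound by NF-kappaB factors, and an interferon-stimulated response element. Class II promoters instead carry the X and Y boxes, on which the coactivator Ciita acts. RefSeq promoters (GRCm38.p6, from 250 bases before to 50 bases after the annotated start) were matched for 32 of the 45 members, and 32851 promoters were searched in all. Each of the 6 class I windows that follow was placed by its match to the interferon pattern, so all 6 hold it by choice. They include H2-Q10, H2-K1 and H2-D1, which make up most of the class I RNA in liver, and both called and uncalled members. Capitals mark exact matches, on either strand, to GGGGATTCCCC (the enhancer A letters as they stand in H2-K1, which therefore matches by construction), to GAANNGAAA (interferon response) and to CCAAT. None of the 3 patterns overlaps another in these windows, and each sequence is read 5′ to 3′ along its gene.

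H2-K1: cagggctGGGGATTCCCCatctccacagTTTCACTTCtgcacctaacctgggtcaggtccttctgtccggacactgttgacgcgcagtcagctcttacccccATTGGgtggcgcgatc

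H2-D1: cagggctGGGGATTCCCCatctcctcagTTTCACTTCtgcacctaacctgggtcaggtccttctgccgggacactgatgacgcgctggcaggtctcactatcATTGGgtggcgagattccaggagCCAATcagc

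H2-Q4: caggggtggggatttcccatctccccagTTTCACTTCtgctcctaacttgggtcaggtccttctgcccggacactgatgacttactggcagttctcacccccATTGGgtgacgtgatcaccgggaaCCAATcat

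H2-Q6: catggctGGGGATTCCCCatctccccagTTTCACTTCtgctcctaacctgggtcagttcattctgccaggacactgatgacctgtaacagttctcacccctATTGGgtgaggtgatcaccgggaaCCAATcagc

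H2-Q7: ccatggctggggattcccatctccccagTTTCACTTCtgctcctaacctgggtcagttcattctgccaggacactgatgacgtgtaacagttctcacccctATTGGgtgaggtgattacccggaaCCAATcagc

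H2-Q10: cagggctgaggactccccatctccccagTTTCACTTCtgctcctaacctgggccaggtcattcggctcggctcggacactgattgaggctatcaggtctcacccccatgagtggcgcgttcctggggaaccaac

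The windows lie at chr17:34000348-34000465 on the minus strand for H2-K1 and, on the plus strand, at chr17:35262916-35263049 for H2-D1, chr17:35379436-35379569 for H2-Q4, chr17:35424670-35424803 for H2-Q6, chr17:35439014-35439147 for H2-Q7 and chr17:35469906-35470039 for H2-Q10. The enhancer A pattern occurred in the promoters of H2-K1, H2-D1 and H2-Q6, which are 3 of 23 class I members with a promoter, against 0.0304% of all promoters (10 of 32851). The interferon pattern occurred in 8 of the 23 (H2-K1, H2-D1, H2-Q4, H2-Q6, H2-Q7, H2-Q10, H2-M2 and H2-M3), against 7.52% of all promoters. The promoters of H2-T23 and H2-T22, more abundant in the diet study than H2-Q4 and H2-Q6, held neither pattern. H2-Q10, which encodes a secreted class I protein made mainly by hepatocytes, held the interferon pattern but neither the enhancer A nor the CCAAT pattern in this window. CCAAT itself is a common short word, found in 37.4% of all promoters and in 20 of the 23. A match describes the letters and is no evidence of binding.

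For class II, 3 windows are printed to show the X box pattern (AG, any 2 bases, AC, any base, GATG), searched on both strands, and the CCAAT pattern of the Y box, again in capitals.

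H2-Eb1: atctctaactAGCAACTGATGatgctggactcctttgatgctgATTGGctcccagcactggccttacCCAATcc

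H2-DMb1: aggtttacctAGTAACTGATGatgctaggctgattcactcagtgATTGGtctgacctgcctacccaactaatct

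H2-Aa: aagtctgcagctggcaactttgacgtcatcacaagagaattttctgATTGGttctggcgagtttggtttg

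These windows lie at chr17:34305765-34305838 (plus strand), chr17:34153086-34153159 (plus strand) and chr17:34287848-34287917 (minus strand). The X box pattern occurred in H2-Eb1, H2-DMb1, H2-Eb2 and H2-Oa, 4 of 8 class II members with a promoter, in 4 of the 23 class I members (H2-M10.1, H2-M10.2, H2-M10.5 and H2-M10.6) and in 0.968% of all promoters. The H2-Aa window held the CCAAT pattern without these exact X box letters. CCAAT occurred in 8 of 8 class II promoters, and the enhancer A and interferon patterns in 0 of 8.

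Library totals were 10420708 to 20357169 estimated counts in the diet study and 9407880 to 20572879 in the panel. In the library labelled BXD65/RwwJ, 4 Y-linked genes summed to 3.86 CPM (counts scaled to library size) against at least 124 in every other library, although all mice are labelled male, so results over strains were also computed without it. After the filter on low counts, 23 members entered the diet tests and 26 the comparison of families. H2-Bl, H2-Ea-ps and H2-T-ps are the 3 members that passed in the panel only. Over all libraries of a study, 15 members had fewer than 10 counts in the diet study and 8 in the panel, most of them M-region genes.

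In C57BL/6J liver the class I RNA was dominated by H2-Q10, H2-K1 and H2-D1. Levels here are TPM (abundances scaled to a fixed total per library), which allow for transcript length. On the 50 ppm diet H2-Q10 had 892, 1031 and 1101 TPM, H2-K1, a classical class I heavy chain, had 600, 727 and 736 TPM, and H2-D1, the other classical heavy chain, had 195, 229 and 226 TPM. H2-T23 (Qa-1, a ligand of the natural killer receptor NKG2A) followed with 101, 118 and 116 TPM. The Q-region genes H2-Q4, H2-Q6 and H2-Q7 and the T-region gene H2-T22 lay between 12.2 and 56.8 TPM. The class II chains were lower: H2-Aa had 14.7, 25.5 and 36.9 TPM, H2-Ab1 12.2, 21.7 and 25.4 TPM and H2-Eb1 9.11, 16.7 and 23.3 TPM. Summed over members, class I reached 1924 to 2353 TPM and class II 41.4 to 92.9 TPM in these 3 mice, and class II thus varied widely among mice of 1 diet.

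**Figure D1:**
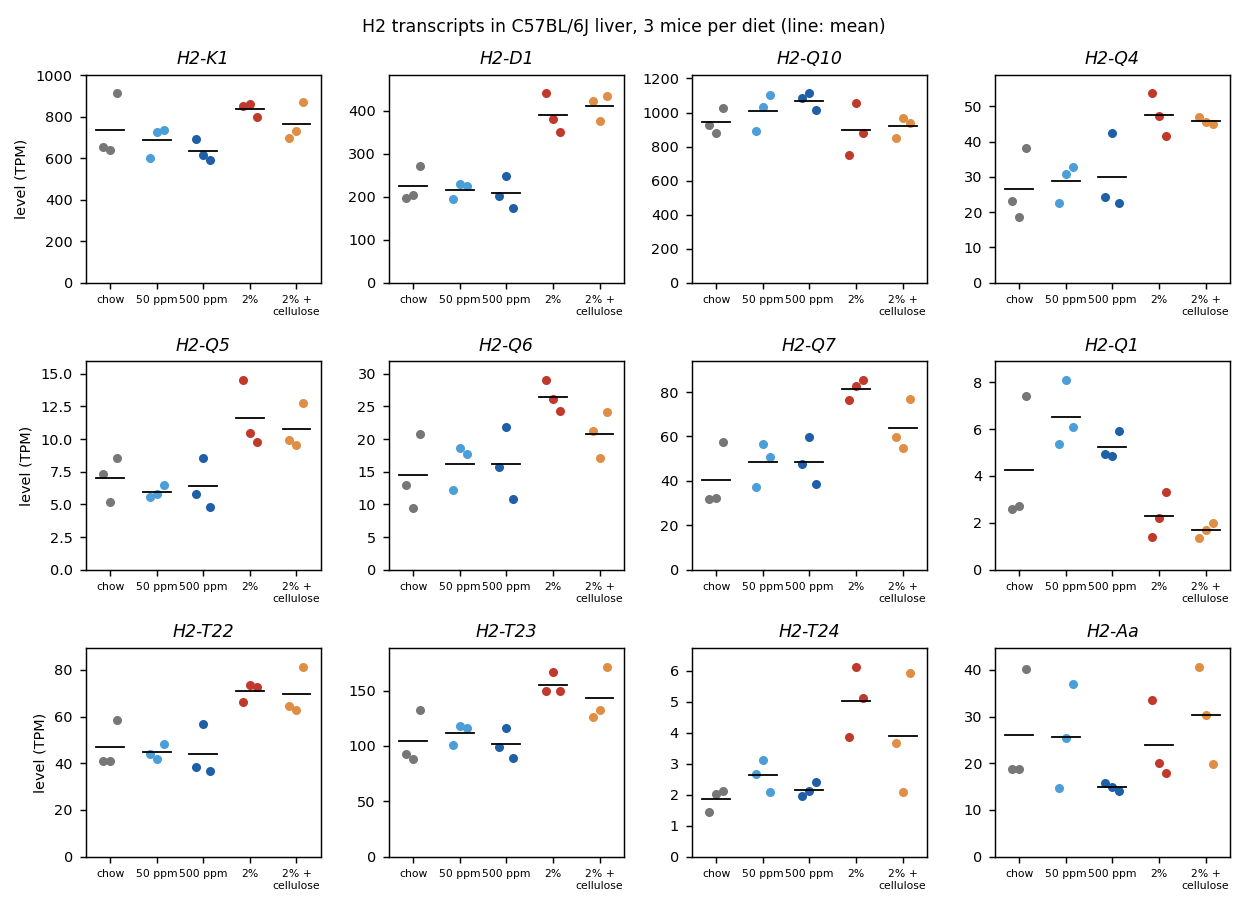
Levels of 12 H2 genes in C57BL/6J liver (vertical axis, TPM from 0) in the 5 diets (horizontal axis). Each point is 1 of 3 mice and each line is the group mean. H2-D1 sits between 351 and 441 TPM in the 6 mice on 2% iron, with or without cellulose, and between 173.5 and 273 TPM in the other 9 mice, while H2-Q10 and H2-Aa overlap between diets.

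The comparison of 2% iron with 50 ppm asks how the liver's MHC transcripts differ between a 2% iron diet and one that the labels call sufficient in iron. Class I heavy-chain genes were called higher at 5 loci (H2-D1, H2-Q5, H2-T22, H2-T24 and H2-M3) and lower at 2 (H2-Q1 and H2-Q2). H2-Ke6 was also lower, and 0 of the 7 class II members tested were called. By edgeR's quasi-likelihood test at an adjusted p under 0.05 this makes 8 of 23 members, where 15.7% of all 13560 genes tested were called (8.52% higher and 7.17% lower). The median log2 difference was 0.63 over the 15 class I members tested and -0.01 over the 7 class II members, beside 0.01 over all genes. The count rests on few mice: it was 4 without mouse 1 or mouse 3 of the 2% group or without mouse 1 or mouse 2 of the 50 ppm group, 5 without mouse 2 of the 2% group or mouse 3 of the 50 ppm group, and 12 without mouse 2 of the 500 ppm group, which enters only through the shared estimate of spread. In bulk liver, more cells of a type and more RNA per cell cannot be told apart.

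H2-D1 (ENSMUSG00000073411, chr17:35262730-35267499) had the smallest adjusted p of the members. It had 441, 381 and 351 TPM on 2% iron (390.9 ± 45.8, SD, n = 3) against 195, 229 and 226 TPM on 50 ppm (216.8 ± 18.6, SD, n = 3). All 3 mice on 2% iron lay above all 3 on 50 ppm, as they did above the chow mice (197, 205 and 273 TPM) and the 500 ppm mice (201.2, 249.7 and 173.5 TPM). The log2 difference from 50 ppm was 0.77 ± 0.14 (SE), with an adjusted p of 0.0037 by edgeR, and it stayed called under each of 9 alternatives (each of the 6 compared mice left out, DESeq2, RLE factors, and limma on log2(TPM + 1)), with values from 0.68 to 0.84. Among distinct 31-base words of its transcripts, 73.1% occurred in no other gene of the GENCODE M21 reference.

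H2-K1 (ENSMUSG00000061232, chr17:33996017-34000347) was not called. It had 850, 860 and 797 TPM on 2% iron (836 ± 33.8, SD, n = 3) against 688 ± 76.1 on 50 ppm (SD, n = 3), and the groups did not overlap. The log2 difference was 0.25 ± 0.11 (SE), which did not pass after adjustment (adjusted p = 0.16 by edgeR). Chow reached as high, with 655, 638 and 912 TPM. Whether the differences of H2-D1 and H2-K1 differ from each other was not tested.

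In the Q region the members went in both directions. H2-Q5 had 14.5, 10.5 and 9.76 TPM on 2% iron and 5.54, 5.83 and 6.52 TPM on 50 ppm, without overlap. Its log2 difference was 0.89 ± 0.21 (SE; adjusted p = 0.0127 by edgeR), and the call was lost without mouse 1 of the 2% group (adjusted p = 0.0613). H2-Q4 and the neighbouring Qa-2 genes H2-Q6 and H2-Q7 had log2 differences of 0.63, 0.66 and 0.65 with adjusted p of 0.0891, 0.0867 and 0.061 by edgeR. Their values did not overlap between the diets: H2-Q7, for one, had 76.4, 82.6 and 85.3 TPM on 2% iron and 37.3, 56.8 and 50.9 TPM on 50 ppm.

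H2-Q1 went the other way, with 1.4, 2.2 and 3.3 TPM on 2% iron and 5.35, 8.08 and 6.07 TPM on 50 ppm. All 3 mice on 2% iron were below all 3 on 50 ppm, and the log2 difference was -1.67 ± 0.39 (SE; adjusted p = 0.011 by edgeR), called under each of the 9 alternatives tried. H2-Q2, its neighbour and closest relative by shared 31-base words, had 0.571, 0.816 and 0.518 TPM against 1.81, 1.44 and 1.34 TPM. Its call (log2 difference -1.27 ± 0.38, adjusted p = 0.0366 by edgeR) was lost without any single one of the 6 mice compared (adjusted p from 0.0508 to 0.156) and with DESeq2 (0.0632). H2-Q10, the most abundant member, had 750, 1054 and 882 TPM on 2% iron and overlapped with 50 ppm (log2 difference -0.26 ± 0.12, adjusted p = 0.162 by edgeR).

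In the T and M regions 3 genes rose. H2-T22, a ligand of gamma-delta T cells, had 66.2, 73.7 and 72.6 TPM on 2% iron against 44.1, 41.9 and 48.3 TPM on 50 ppm (log2 difference 0.60 ± 0.17, adjusted p = 0.0307 by edgeR). H2-T24 had 3.86, 6.11 and 5.1 TPM against 2.66, 3.12 and 2.07 TPM (0.94 ± 0.29, adjusted p = 0.0399), and H2-M3, which presents formylated peptides, had 3.44, 2.06 and 2.61 TPM against 0.938, 1 and 1.87 TPM (1.01 ± 0.31, adjusted p = 0.0409). None of these 3 genes overlapped between the groups, yet single mice decide the calls. The share of all genes without overlap between 3 and 3 mice was not counted. H2-T22 lost its call without any single one of the 6 mice (adjusted p from 0.0507 to 0.0998). For H2-T24 this held for each of them except mouse 1 of the 2% group (0.0648 to 0.129), and it was also not called by limma on log2(TPM + 1) (0.0814). H2-M3 lost its call without mouse 1 or mouse 3 of the 2% group or mouse 1 or mouse 2 of the 50 ppm group (0.094 to 0.156).

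H2-T23 had 150, 167 and 150 TPM on 2% iron, all above the 50 ppm mice, with a log2 difference of 0.42 ± 0.14 (SE; adjusted p = 0.0597 by edgeR, and 0.0377 by DESeq2). H2-T10, which shares 47.2% of the 31-base words of H2-T22, had 2.11, 2.14 and 4.06 TPM against 0.63, 1.31 and 1.39 TPM (log2 difference 1.07, adjusted p = 0.116 by edgeR), so reads of this pair can be assigned only in part. H2-Ke6, the non-MHC member, had 50, 52.9 and 34.8 TPM against 57.3, 62.7 and 68 TPM and was called lower (log2 difference -0.51 ± 0.12, adjusted p = 0.0109 by edgeR, 0.0712 by limma on log2(TPM + 1)). Since 76.1% of its 31-base words are shared with a gene outside the set, its value is uncertain.

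**Figure D2:**
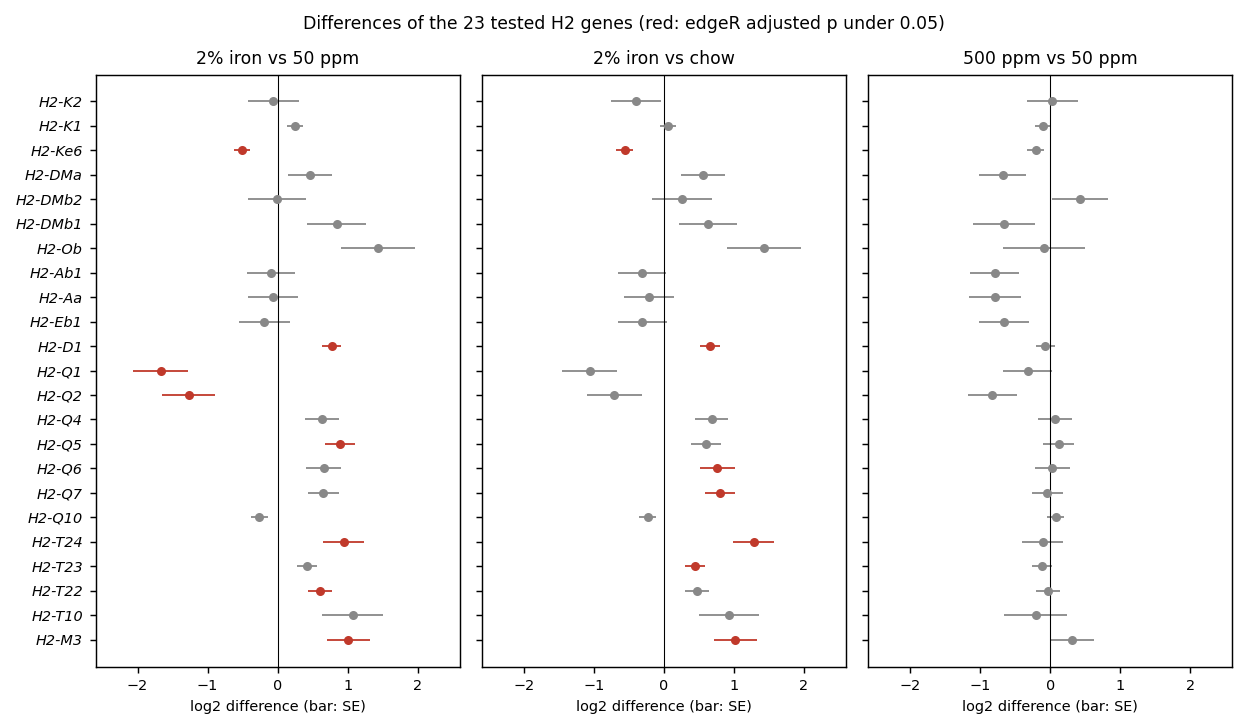
Log2 differences of the 23 tested H2 genes (points, with bars of 1 SE) in 3 comparisons, ordered along the chromosome. Red points passed an edgeR adjusted p of 0.05: 8 genes for 2% iron against 50 ppm, 7 for 2% iron against chow, and 0 for 500 ppm against 50 ppm.

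Class II chains were not called between 2% iron and 50 ppm. H2-Aa had 33.5, 20.1 and 18 TPM on 2% iron, within the range of the 50 ppm mice, and its log2 difference was -0.07 ± 0.36 (SE; adjusted p = 0.92 by edgeR). Its sign turned when a mouse was left out: 0.04 without mouse 2 and 0.08 without mouse 3 of the 2% group, and 0.22 without mouse 3 of the 50 ppm group. H2-Ab1 and H2-Eb1 gave log2 differences of -0.10 ± 0.34 and -0.19 ± 0.36. Of the 4 peptide-loading chains tested, H2-DMa (0.46), H2-DMb1 (0.84) and H2-Ob (1.43) had higher means without passing. Their adjusted p were 0.35, 0.191 and 0.0843 by edgeR, with standard errors of 0.31, 0.42 and 0.53. H2-DMb2 gave -0.01 ± 0.42 (adjusted p = 0.988 by edgeR).

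The comparisons of 2% iron with 500 ppm and with chow use the same 3 mice on 2% iron and so share their values with the previous one. Against 500 ppm, 8 of 23 members were called by edgeR, 7 higher and 1 lower, where 11.3% of all genes were called (6.59% higher, 4.75% lower). The called genes were H2-D1 (0.85), H2-Q5 (0.77), H2-T22 (0.62), H2-T23 (0.55), H2-T24 (1.05), H2-DMa (1.14) and H2-DMb1 (1.50), and H2-Q1 (-1.34), all as log2 differences. The number fell to 1 without mouse 1 or mouse 3 of the 500 ppm group and to 2, 4 and 3 without mouse 1, 2 and 3 of the 2% group. H2-T22 and H2-T23 lost their calls without any single mouse of the 2% group or without mouse 1 or mouse 3 of the 500 ppm group (adjusted p from 0.0516 to 0.137 by edgeR). Without either of those 2 mice of the 500 ppm group H2-Q5, H2-T24 and H2-Q1 were not called either, nor was H2-Q5 without mouse 1, H2-T24 without mouse 2 or mouse 3, or H2-Q1 without mouse 1 or mouse 2 of the 2% group (0.0569 to 0.131). H2-D1 stayed called under each of the 9 alternatives tried, with log2 differences from 0.74 to 1.02.

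H2-DMa and H2-DMb1 form the catalyst of class II peptide loading, and were called in this comparison and in none of the other 5 between diets. H2-DMa had 5.25, 4.78 and 2.19 TPM on 2% iron and 1.35, 1.73 and 1.5 TPM on 500 ppm (adjusted p = 0.0332 by edgeR). H2-DMb1 had 7.2, 3.22 and 3.26 TPM against 1.46, 0.997 and 1.41 TPM (adjusted p = 0.0356). The groups did not overlap for either gene, but both calls were lost without mouse 1 or mouse 3 of the 2% group or mouse 1 or mouse 3 of the 500 ppm group, that of H2-DMa also without mouse 2 of the 2% group and that of H2-DMb1 without mouse 2 of the 500 ppm group (adjusted p from 0.0605 to 0.147 by edgeR). H2-DMb2 gave a log2 difference of -0.44 (adjusted p = 0.523 by edgeR). Of the 31-base words of H2-DMb1, 31.4% also occur in H2-DMb2, so reads of this pair can be assigned only in part. H2-Aa had its lowest and closest values on 500 ppm (15.7, 15 and 14 TPM). The class II sum there was 37 to 45.8 TPM, against 47.3 to 113 TPM on chow, and it overlapped with 41.4 to 92.9 TPM on 50 ppm.

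Against chow, 7 of 23 members were called by edgeR, 6 higher and 1 lower, where 22.8% of all genes were called (11.9% higher, 10.9% lower). Higher were H2-D1 (0.66), H2-Q6 (0.76), H2-Q7 (0.80), H2-T23 (0.44), H2-T24 (1.28) and H2-M3 (1.02), and lower was H2-Ke6 (-0.56), all as log2 differences. H2-T24 had 1.45, 2.03 and 2.1 TPM on chow, below each mouse on 2% iron, with a log2 difference of 1.28 ± 0.29 (SE; adjusted p = 0.00641 by edgeR) that was called under each of the 9 alternatives, as was H2-D1. The third chow mouse had the highest value of its group for H2-K1, H2-D1, H2-Q10, H2-Q7, H2-T23 and H2-Aa, and without it 11 members were called; without mouse 2 of the chow group 3 were, and without mouse 1 or mouse 3 of the 2% group 4. The calls of H2-Q6 and H2-T23 were lost without any single mouse of the 2% group or without mouse 1 or mouse 2 of the chow group (adjusted p from 0.0656 to 0.161 by edgeR). H2-Q7 lost its call without mouse 3 of the 2% group or mouse 1 or mouse 2 of the chow group (0.0577 to 0.0822), and H2-M3 without mouse 1 or mouse 3 of the 2% group or mouse 2 or mouse 3 of the chow group (0.0558 to 0.116).

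Among the 50 ppm, 500 ppm and chow groups (500 ppm is labelled elevated and chow has no stated iron level), the comparisons with 50 ppm called no member, and neither did that between the 2% diets. For 500 ppm against 50 ppm edgeR called 0 of 23 members and 0% of all genes, with 2 members at an unadjusted p under 0.05. For chow against 50 ppm it called 0 of 23 (0.391% of all genes), and for 2% iron with cellulose against 2% iron 0 of 23 (0.0811% of all genes, 0.00737% higher and 0.0737% lower), with 0 members at an unadjusted p under 0.05 in each. DESeq2 also called 0 members in each of the 3. H2-D1 on 2% iron with cellulose had 424.0, 377.7 and 434.1 TPM, all within the range of the other 2% group.

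Genes outside the H2- symbols that act in antigen presentation were taken as a list of 29, of which 28 have a row in the table and 27 were tested. For 2% iron against 50 ppm edgeR called 5 higher and 0 lower, where 8.52% of all genes were called higher and 7.17% lower. The median log2 difference of the list was 0.28. B2m, the class I light chain, had 1966, 1939 and 1750 TPM on 2% iron against 1298, 1429 and 1423 TPM on 50 ppm (log2 difference 0.38 ± 0.09, adjusted p = 0.0154 by edgeR). Against chow, where B2m had 1536, 1580 and 1906 TPM, it was not called (0.04, adjusted p = 0.813). The other 4 were the lysosomal proteases Ctss (1.50), Lgmn (1.11) and Ctsl (0.45), which trim the invariant chain or antigens, and the costimulator Cd86 (1.46).

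The regulators and the class II chaperone did not pass in that comparison. Nlrc5, the class I transactivator, had 12.7, 7.98 and 11.2 TPM on 2% iron against 6.92, 7.25 and 7.51 TPM on 50 ppm (log2 difference 0.57, adjusted p = 0.0626 by edgeR), with no overlap. Ciita, the class II transactivator, had at most 0.431 TPM in the 6 mice, with a log2 difference of 0.19 ± 0.40. Cd74 gave 0.33 ± 0.31 and was called only against 500 ppm (1.08, adjusted p = 0.0415 by edgeR), the comparison in which H2-DMa and H2-DMb1 were called. Psmb8 of the immunoproteasome had log2 differences of 0.43 from 50 ppm, 0.60 from 500 ppm and 0.55 from chow, called in the last 2 (adjusted p = 0.0236 and 0.0227).

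Interferon-induced genes and their regulators were taken as a list of 20. Of these, edgeR called 12 higher and 0 lower on 2% iron against 50 ppm, where 8.52% of all genes were called higher and 7.17% lower. The median log2 difference of the list was 1.18. Ifit2 (2.22), Irf7 (1.80), Ifit1 (1.79), Gbp3 (1.43), Gbp7 (0.92) and Irgm1 (0.69) were among those called, and Irf1 (-0.11) and Cxcl9 (-0.05) were among those not called. Their summed level was 433 to 573 TPM on 2% iron, 348 to 474 TPM on 2% iron with cellulose and 138 to 269 TPM in the other 3 groups.

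Markers of other liver cells moved with the diets as well. All 12 Kupffer cell and macrophage markers were called higher on 2% iron against 50 ppm, where 8.52% of all genes were. Their median log2 difference was 1.62. Their summed level was 513.1 to 613.2 TPM on 2% iron, 607.6 to 879.5 TPM with cellulose and 133.6 to 246.0 TPM in the other 3 groups. Their part in the H2 results was not tested. By edgeR on counts 1 of 6 dendritic cell markers tested was called higher (Clec9a), and 1 of 7 B cell markers (Cd22). Of the T and NK cell markers 0 of 2 were, and of the sinusoidal endothelial markers 1 of 6 (Stab2). In TPM Clec9a overlapped between the diets, at 2.48, 3.43 and 1.67 on 2% iron and 1.13, 3.1 and 2.92 on 50 ppm. Cd22 overlapped too, at 2.13, 1.65 and 1.5 against 1.04, 0.559 and 1.6 TPM. The dendritic cell marker Itgax had 1.47, 1.27 and 0.538 against 0.289, 0.298 and 0.291 TPM. Of the 6 hepatocyte markers 3 fell (Apoa1, Cyp2e1 and Serpina1c), with a median log2 difference of -0.62 over the 6. The summed level of the 6 overlapped between the diets, at 50869 to 58260 TPM on 2% iron and 46756 to 55377 TPM on 50 ppm. Alb, the largest part of that sum and not called, had 43199, 42144 and 38087 TPM on 2% iron and 25133, 33466 and 30113 TPM on 50 ppm. Cd209a was listed at 0 in 1 of the 15 libraries and Ncr1 in 2.

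In the panel, strains differed more than mice of 1 diet group did. The SD of log2 CPM over 114 strains was larger than the SD within diet groups for each of the 23 members tested in both studies, from 1.46 times for H2-Ob to 7.47 times for H2-Q2, with 6.81 for H2-K1 and 6.19 for H2-T23. The 2 experiments were processed as separate tables, so only the spreads are set side by side. The 2 mice of 129X1/SvJ gave 515.7 and 517.3 TPM of H2-K1, 205.4 and 173.1 TPM of H2-D1, 1427 and 1337 TPM of H2-Q10 and 118 and 98.2 TPM of H2-T23.

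How far a panel value reflects expression depends on the match between a strain's H2 alleles and the C57BL/6J reference. Reads of a diverged allele can fail to match, or can match a neighbouring gene better than their own, and either cannot be told apart from a difference in expression with these files. Within the reference itself, the share of 31-base words found in no other gene was 77.2% for H2-K1, 69.7% for H2-Q10, 74.2% for H2-T23, 48.2% for H2-Q6 and 32.6% for H2-T22, and 100% for H2-Ea-ps, 99.1% for H2-Aa and 98.9% for H2-Eb1. These shares describe ambiguity between genes of C57BL/6J and not the loss of reads from other alleles.

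H2-Ea-ps (ENSMUSG00000036322, chr17:34341959-34344645, minus strand), the E alpha chain gene, had little or no RNA in many strains of the panel and more in the others. It had 0 counts in 46 of the 114 strains, under 2 TPM in 54 and 3.59 to 55.1 TPM in the other 60, and no strain lay between 1.39 and 3.59 TPM. The line at 2 TPM only describes: on a log scale the widest gap over all strains lay between 0.485 and 1.39 TPM. The C57BL/6J mouse had 0 TPM, and the 15 C57BL/6J libraries of the diet study held 1 count in all. DBA/2J had 8.82 TPM, A/J 12, C3H/HeJ 10.8 and BALB/cByJ 8.75 TPM. Strains under 2 TPM numbered 26 of 56 in BXD, 12 of 20 in AXB/BXA, 2 of 4 in BXH, 2 of 3 in CXB and 12 of 31 among the other inbred strains. Those 12 were 129X1/SvJ, BTBR T<+> tf/J, BUB/BnJ, C57BL/6J, C57L/J, FVB/NJ, KK/HlJ, LP/J, NOD/ShiLtJ, NOR/LtJ, SJL/J and SWR/J. BUB/BnJ was the highest of them at 1.39 TPM, with 8 counts. BXH2/TyJ, under 2 TPM with 3 counts, also had the lowest H2-Aa of all strains.

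In the BXD family several members fell into a C57BL/6J-like and a DBA/2J-like set of strains. Parents differed by at least 1 in log2 CPM for 13 of 26 members. On log2(TPM + 1) H2-DMa, H2-DMb1, H2-Ob and H2-Aa no longer did, and H2-Q6 was added. H2-K1 had 635 TPM in C57BL/6J and 199 in DBA/2J; 26 strains lay nearer to C57BL/6J, at 416 to 1062 TPM, and 30 nearer to DBA/2J, at 163 to 311 TPM. H2-K2, a pseudogene beside it, went the other way, with 1.53 to 8.98 TPM in the 26 and 35.6 to 76.6 TPM in the 30. H2-Q2 was at 0.224 to 1.82 TPM in strains nearer to C57BL/6J and at 39.4 to 73.7 TPM in those nearer to DBA/2J. In log2 CPM the widest gap between neighbouring strains of this family fell between these ranges for each gene. It was 0.54 for H2-K1, 2.05 for H2-K2 and 4.37 for H2-Q2.

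Each of the 56 BXD strains fell on the same parent's side for H2-K2, H2-K1, H2-Ea-ps, H2-Q2 and H2-Bl, although the starts of H2-K1 and H2-Bl lie 2084 kb apart. H2-T-ps, a T-region pseudogene, shared the side of H2-K1 in 53 strains, H2-Q7 in 51 and H2-T10 in 50. Among the class II genes within the same interval, H2-Ob did so in 41, H2-DMb1 in 34, H2-Ab1 and H2-Aa in 33 and H2-DMa in 32. For these the ranges of the 2 sides met, as with H2-Aa at 14.2 to 131 TPM in the 43 strains nearer to C57BL/6J and 4.89 to 15.4 TPM in the 13 nearer to DBA/2J. Their parents, 1 mouse each, differed by -1.81 to -1.07 in log2 CPM, beside SDs within diet groups of 0.38 to 0.54. For H2-K1 the difference was -1.47 and the SD 0.13, so the sides of the class II genes are less certain. Summing H2-K1 with H2-K2 left 641 TPM in C57BL/6J and 237 in DBA/2J, and so narrowed the distance between the parents only a little.

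H2-Q6 did not meet the rule in log2 CPM, but on the scale of log2(TPM + 1) the BXD parents differed by 1.72. It had 21.2 TPM in C57BL/6J and 72.3 in DBA/2J, with 26 strains at 9.58 to 37.3 TPM and 30 at 45.3 to 127 TPM. H2-Q7 had the opposite order, with 55.5 TPM in C57BL/6J and 19.6 TPM in DBA/2J. These neighbours share part of their sequence, and 22.4% of the 31-base words of H2-Q7 also occur in H2-Q10. H2-D1 did not reach the threshold (352 and 271 TPM in the parents), and over the BXD strains it ran from 223 to a median of 351 TPM, with 576.3 TPM as the highest of them. H2-Q10 likewise stayed close in the parents, at 1069 and 793 TPM.

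**Figure D3:**
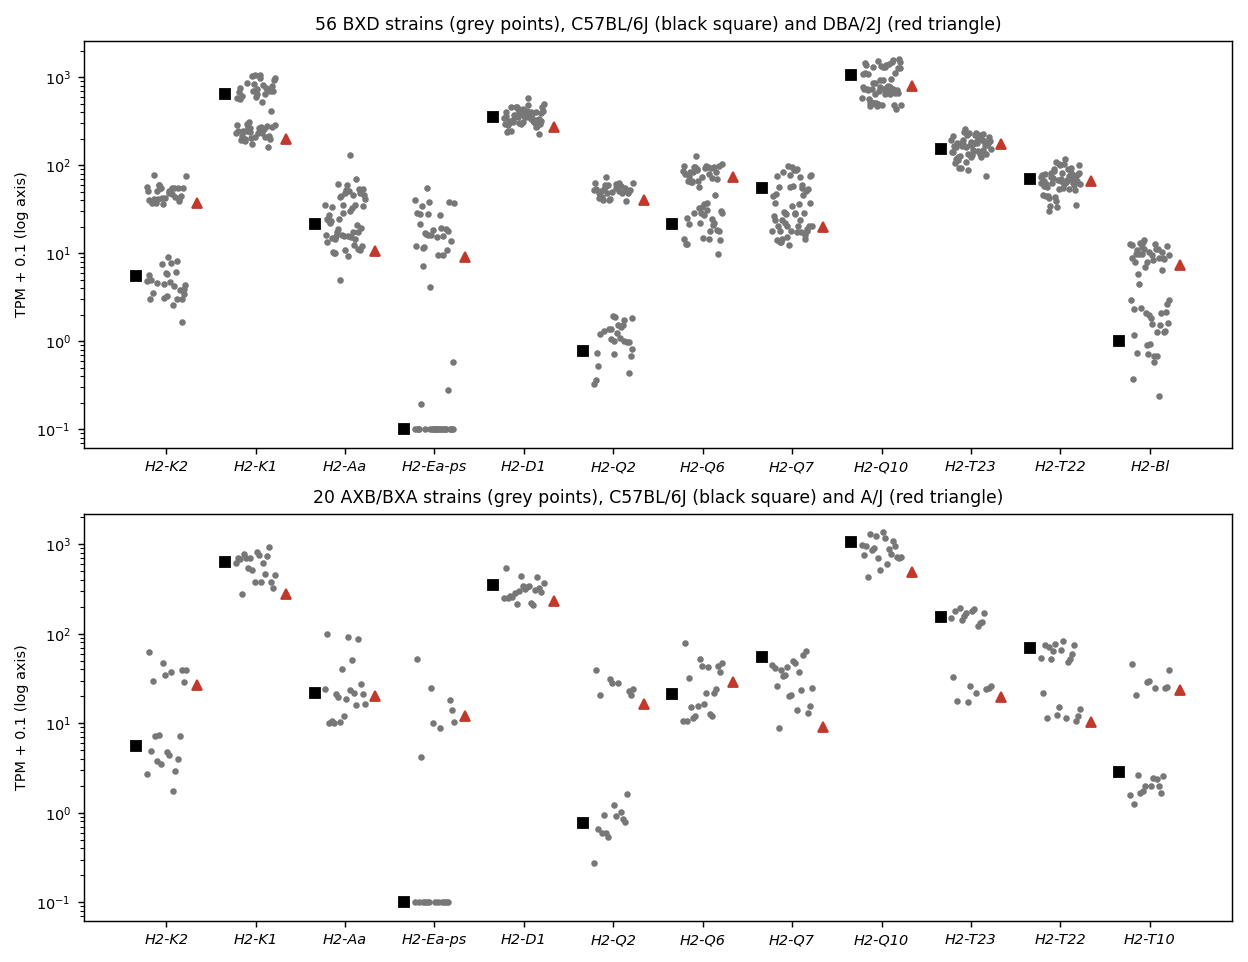
Levels of 12 H2 genes (vertical axis, TPM + 0.1 on a log scale) in the 56 BXD strains (top) and the 20 AXB/BXA strains (bottom), 1 grey point per strain. Black squares mark C57BL/6J and red triangles the other parent (DBA/2J or A/J). H2-K2, H2-Ea-ps and H2-Q2 form separate bands near the parents in both families. H2-T23 and H2-T22 form a single band in BXD and a pair of bands in AXB/BXA, at 123 to 195 and 17 to 32.4 TPM for H2-T23.

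In the AXB/BXA family parents differed for 18 of 26 members, among them several T-region genes. On log2(TPM + 1) H2-Ob, H2-Ab1, H2-Eb1, H2-Q5, H2-T24 and H2-M3 no longer did. H2-T23 had 153 TPM in C57BL/6J and 19.4 in A/J, with 12 strains at 123 to 195 TPM and 8 at 17 to 32.4 TPM. H2-T22 had 69.7 and 10.1 TPM in the parents, with 12 strains at 48.6 to 81.8 TPM and 8 at 10.4 to 21.9 TPM. H2-T10 and H2-T-ps went the other way in the same strains: H2-T10 was at 1.16 to 2.52 TPM in the 12 and 20.4 to 45.8 TPM in the 8, and H2-T-ps at 0 to 1.32 and 21.4 to 40.1 TPM. In the reference 47.6% of the words of H2-T10 occur in H2-T22 and 35.5% of those of H2-T-ps occur in H2-T23. Whether reads of one of these genes were listed under another was not tested.

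Every AXB/BXA strain fell on the same side for H2-Ea-ps, H2-K2, H2-Q2, H2-Q10, H2-T23, H2-T22, H2-T-ps and H2-T10 (20 of 20). H2-Q10 differed here, with 770 to 1354 TPM in the 12 strains nearer to C57BL/6J and 427.3 to 766.8 TPM in the 8 nearer to A/J, and 1069 and 494 TPM in the parents. H2-Bl shared the side of H2-Ea-ps in 19 strains, H2-Q7 in 17, H2-K1 in 16 and H2-M3 in 7. The summed class I level was 2430 TPM in C57BL/6J and 1216 in A/J, and over the 20 strains it ran from 1209 to 2879 TPM.

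In the small families parents differed for 12 of 26 members in BXH and 11 of 26 in CXB. H2-K2, H2-Ob, H2-Ea-ps, H2-Q2, H2-Q7, H2-Bl and H2-T-ps differed by at least 1 in log2 CPM between the parents of all 4 families, and H2-Q1 and H2-D1 between those of BXH alone. On log2(TPM + 1) fewer members differed in each family. H2-Ob, at most 0.743 TPM in these parents, then differed in none of the 4, and H2-T-ps and H2-D1 did not in BXH. H2-D1 had 352 TPM in C57BL/6J and 267 TPM in C3H/HeJ. H2-Q1, at 1.81 TPM in C57BL/6J, had 22.8 TPM in C3H/HeJ, the highest of all strains, and H2-Q7 had 55.5 TPM in C57BL/6J and 3.35 TPM in C3H/HeJ. With 4 and 3 strains these families give values only.

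A test of the BXD family against the AXB/BXA family asked which members differ in mean level where 1 parent is shared and the other is not. Of 26 members, 6 were higher and 4 lower in BXD by edgeR, where 11.6% of all 13794 genes tested were called (6.62% higher, 5.02% lower). Higher were H2-Q6 (log2 difference 0.75 ± 0.16, SE; adjusted p = 0.000513), H2-T24 (0.68), H2-T22 (0.58), H2-T23 (0.56), H2-Q5 (0.38) and H2-Q4 (0.35). The medians were 59.7 and 21.6 TPM for H2-Q6 and 169 and 133 TPM for H2-T23, with strains overlapping between the families for both.

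Lower in BXD were H2-T-ps (-2.09 ± 0.39), H2-T10 (-1.22 ± 0.27), H2-Q1 (-0.61) and H2-Ke6 (-0.14), again as log2 differences by edgeR. By limma on log2(TPM + 1) these 4 and H2-Q5 were not called, and H2-T-ps gave -0.68 with an adjusted p of 0.257. The median strain was higher in BXD for H2-T-ps (1.84 against 1.05 TPM) and H2-T10 (4.68 against 2.39 TPM). It was lower in BXD for H2-Q1 (2.37 against 3.31 TPM) and H2-Ke6 (46.7 against 54.7 TPM). The 8 AXB/BXA strains nearer to A/J had 21.4 to 40.1 TPM of H2-T-ps and 20.4 to 45.8 TPM of H2-T10. H2-D1 was not called (0.19, adjusted p = 0.0557 by edgeR), and 0 of the 8 class II members were, at an unadjusted p under 0.05 likewise 0. AXB19a, AXB19b and BXD48a share a name with another strain of the panel (AXB19, BXD48), and without these 3 libraries 7 members were called, and 1302 of all genes in place of 1606. The families differ in their mix of parental alleles at H2 and in the rest of the genome, and these cannot be told apart by this test. Nlrc5 was higher in BXD (0.31, adjusted p = 0.00474 by edgeR), and the class II promoter factors Rfxank (-0.59) and Rfxap (-0.15) were lower. Over the antigen presentation list 1 of 28 tested genes was called higher and 3 lower, beside 6.62% and 5.02% of all genes.

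Across the 31 other inbred strains the abundant class I genes ranged widely. H2-K1 ran from 76.7 TPM in NOR/LtJ and 77.9 TPM in NOD/ShiLtJ, over a median of 256.1, to 816.2 TPM in KK/HlJ. H2-Q10 ran from 83 TPM in NZB/BlNJ, over 704, to 2291 TPM in I/LnJ. H2-D1 ran from 139 TPM in RIIIS/J, over 266, to 787 TPM in BUB/BnJ, where the next highest strain had 440 TPM.

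H2-T22 had a gap between 14.6 and 26.6 TPM, with 12 strains below it: A/J, BUB/BnJ, C58/J, FVB/NJ, KK/HlJ, NOD/ShiLtJ, NON/ShiLtJ, NOR/LtJ, NZB/BlNJ, PL/J, SJL/J and SWR/J. NZB/BlNJ was the lowest of all 114 strains for H2-T22 (4.03 TPM), H2-T23 (3.79 TPM), H2-Q10, H2-Q1 (0.0353 TPM) and H2-Ke6 (12.8 TPM), and its class I sum, 516.6 TPM, was the lowest too. It also had the lowest B2m, at 469 TPM. H2-Q2 was at 0.462 to 1.28 TPM in 129X1/SvJ, BTBR T<+> tf/J, C57BL/6J, C57L/J and LP/J and at 3.94 to 55.7 TPM in the other 26 strains, and these 5 all had H2-Ea-ps under 2 TPM.

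Among the class II chains FVB/NJ had 0.0882 TPM of H2-Eb1, the E beta chain, where the next inbred strain had 0.914. KK/HlJ was the highest of all 114 strains for H2-Aa (146 TPM), H2-Ab1 (116 TPM) and H2-Eb1 (97.6 TPM), with a class II sum of 393 TPM, and had 0 TPM of H2-Ea-ps. The lowest class II sum of all strains was 5.44 TPM, in BXH2/TyJ.

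**Figure D4:**
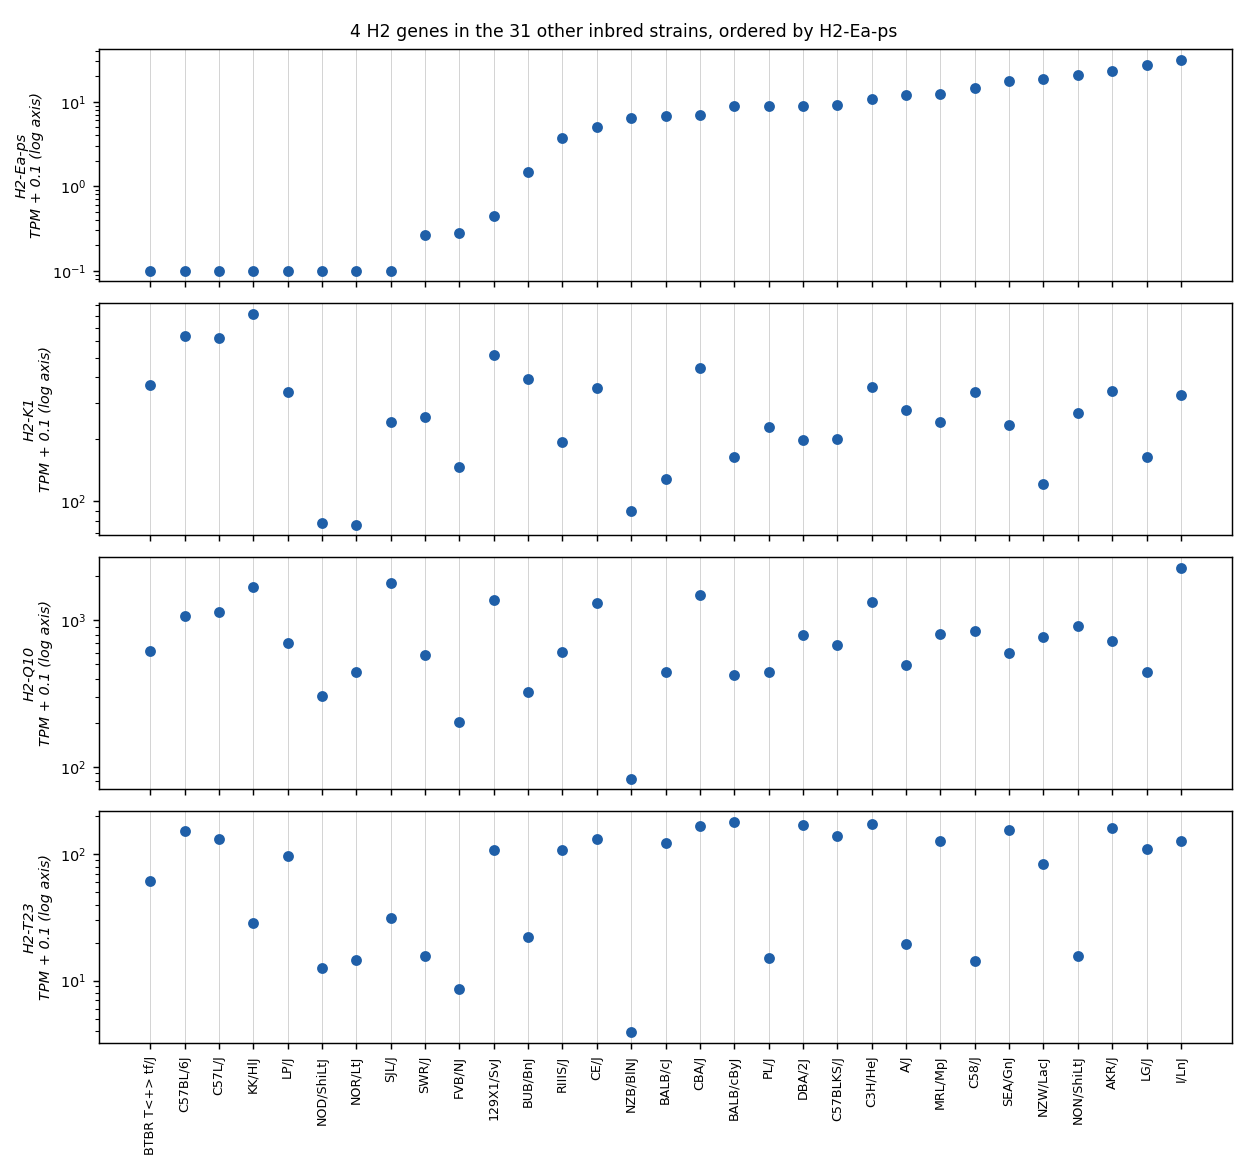
Levels of H2-Ea-ps, H2-K1, H2-Q10 and H2-T23 (vertical axes, TPM + 0.1 on a log scale) in the 31 other inbred strains (horizontal axis, ordered by H2-Ea-ps), 1 point per strain. H2-Ea-ps is at most 1.39 TPM in 12 strains and at least 3.59 TPM in 19, and NZB/BlNJ is lowest for H2-Q10 and H2-T23.

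Class II RNA varied between strains together with Cd74, a gene outside the H2 region. Over 114 strains, 7 of the 7 class II members that did not fall into clusters were related to Cd74 at an adjusted p under 0.05 by permutation, out of 25 relations computed with Cd74 or B2m. H2-Aa gave r = 0.90 and rho = 0.89, each with a permutation p of 1e-05, the smallest that 100000 resamples can give (adjusted p 1.64e-05 and 1.8e-05). H2-Ab1 followed with r = 0.89 (rho = 0.86), H2-DMb1 with 0.81 (0.84), H2-Eb1 with 0.79 (0.84), H2-DMa with 0.76 (0.76), H2-DMb2 with 0.48 (0.48) and H2-Ob with 0.40 (0.35). All 7 remained past the threshold without the 2 strains farthest from the median of Cd74, and within the BXD family 7 of 7 did. Within AXB/BXA it was 6 of 7 (5 without the 2 farthest strains, with H2-Ob at 0.23), and among the other inbred strains 5 of 6, with H2-DMb2 at 0.08.

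H2-Aa against Cd74 gave r = 0.86 within BXD, 0.92 within AXB/BXA and 0.93 among the other inbred strains. H2-Ea-ps fell into clusters and was given no coefficient.

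Class I members were set against B2m, the light chain. Over 114 strains 9 of 11 members without clusters passed, led by H2-D1 (r = 0.65, rho = 0.64, permutation p 1e-05, the smallest possible) and H2-Q7 (r = 0.64, rho = 0.58), and 8 did without the 2 strains farthest from the median of B2m. H2-T-ps (-0.17) and H2-T10 (-0.07) did not pass. Within families H2-D1 gave 0.47 in BXD, 0.33 in AXB/BXA and 0.45 in the other inbred strains, each below its value over all strains, whereas H2-Q10 and H2-Q1 gave 0.71 and 0.54 in the other inbred strains and 0.53 and 0.24 over all. Without the 2 farthest strains H2-Q10 gave 0.48 in the other inbred strains and 0.37 over all. H2-Q1 then gave 0.37 and 0.09 and passed in neither, and its rho over all 114 strains was 0.16. The number passing was 7 of 12 in BXD, 1 of 11 in AXB/BXA and 7 of 15 in the inbred strains, and 6, 0 and 4 without the 2 farthest strains. Within BXD, where H2-T23 and H2-T22 form no clusters, they gave the closest relations, r = 0.74 and 0.71 (rho = 0.68 and 0.61). H2-K1 fell into clusters over all strains and within BXD and was given no coefficient there.

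**Figure D5:**
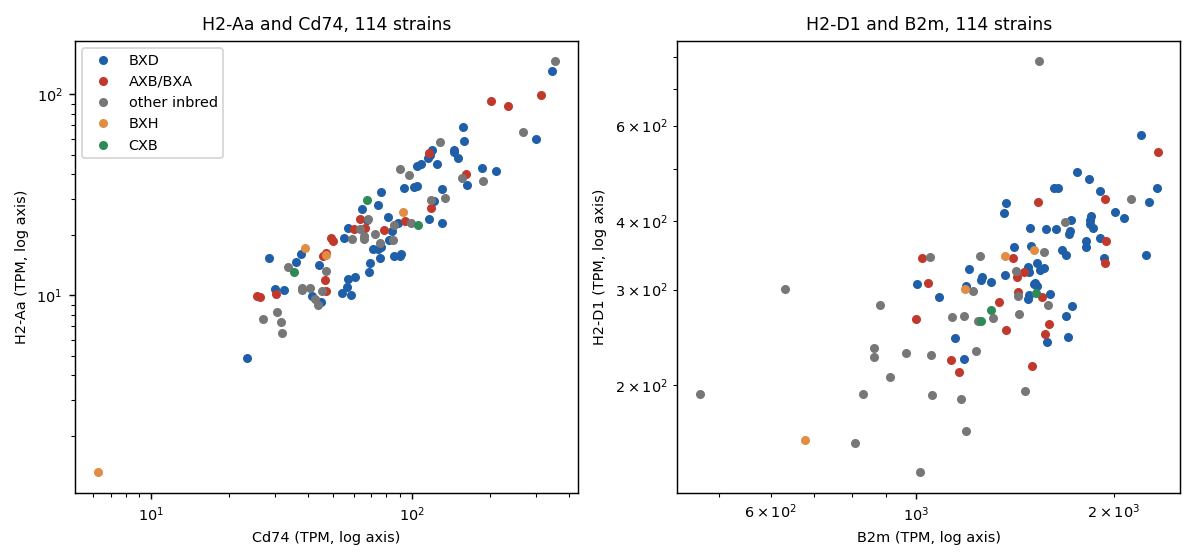
H2-Aa against Cd74 (left) and H2-D1 against B2m (right) in TPM on log axes, 1 point for each of the 114 strains, coloured by family. H2-Aa rises with Cd74 (r = 0.90 over all strains), with BXH2/TyJ at the lower left, and H2-D1 is more scattered (r = 0.65), with BUB/BnJ above the rest at 787 TPM.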

How the data were processed

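Libraries were made from total RNA of liver (large lobe) with the KAPA Stranded mRNA-Seq Kit, per the labels' protocols. The authors deposited, for each study, a table of estimated counts per gene and a table of TPM values (abundances scaled by transcript length and library). The submitters' processing notes name kallisto 0.46 and mm10; the use of strand in counting is not given in the sources used here. Kallisto assigns reads by matching words to reference transcripts, so reads shared by H2 genes are split by its model and diverged alleles can be missed.

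Estimated counts were rounded to whole numbers and tested with edgeR 4.0.16 (R 4.3.3; TMM factors, filterByExpr, quasi-likelihood test, two-sided) with Benjamini-Hochberg adjustment over all genes tested, at an adjusted p of 0.05. The diet fit used all 15 libraries, and the family fit the BXD and AXB/BXA strains, with the strain as replicate. The labels do not say whether mice were housed or processed apart, so p-values measure the spread between these samples. The tests were checked on simulated data with 200 changed genes. Relations across strains used log2 CPM (counts scaled to library size, prior count 2), Pearson's r and Spearman's rho with 100000 permutations (scipy 1.17.1). Members that fell into clusters (a mixture of 2 normals preferred by a BIC gain of 10, an Ashman's D of over 3, and no cluster under 3 strains) got no coefficient. A strain was placed with the parent nearer in log2 CPM where parents differed by at least 1. Shared 31-base words were counted in GENCODE M21 transcripts.

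Alternatives were DESeq2 1.42.0, limma 3.58.1 on log2(TPM + 1) and log2(TPM + 0.1), RLE factors, no filter or at least 10 counts in every library, the groups compared alone, and each mouse left out in turn. Values per mouse are given for members with a mean of at least 20 TPM in the diet study, members called in a diet comparison, and the largest changes between families. In the panel the parents, lowest, median and highest strain are given for members with a parental difference of at least 1 and a mean of at least 5 TPM, and for H2-Ea-ps, H2-K1, H2-D1, H2-Q10, H2-Aa, H2-Ab1 and H2-Eb1 in any case. The members, lists and tests were chosen with earlier results of these data known; the widest gaps between inbred strains and the BXH values were chosen after the values were seen. Of the antigen presentation list, Ifi30 has no row and was not analysed here. The 2 mice of 129X1/SvJ were averaged.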

Additional observations from a re-analysis of the deposited data

Results flagged for a closer look

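In the BXH family of 4 strains, 1 strain stood far from the other 3 for 2 of the 26 members tested, by the gap to the nearest strain as a share of the range (above Dixon's 95% critical value). Chance alone gives such a gap in about 1 in 20 groups. H2-Ab1, the A beta chain, was lowest in BXH2/TyJ, at -0.30 in log2 CPM where the nearest strain had 3.10. In TPM it had 0.961, against 11.5 in BXH10/TyJ, 10.2 in BXH14/TyJ and 10.9 in BXH8/TyJ. H2-T24 was highest in BXH14/TyJ, at 4.35 where the nearest strain had 2.44, or 11.1 TPM against 2.65, 3.08 and 2.16 TPM in BXH10/TyJ, BXH2/TyJ and BXH8/TyJ.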

How the results depend on the processing

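H2-D1 kept its call and direction under the 9 alternatives applied to single genes in each comparison of 2% iron with 50 ppm, 500 ppm and chow. With single mice left out, the number of members called ran from 4 to 12 for 2% iron against 50 ppm, from 1 to 12 against 500 ppm and from 3 to 11 against chow, and stayed at 0 in the other 3 diet comparisons. Calls over all genes moved as well, from 1003 to 2333 (2127 with every mouse), 788 to 2204 (1538) and 2151 to 3320 (3087). H2-Aa, not called against 50 ppm at -0.07, ran from -0.39 (without mouse 1 of the 2% group) to 0.22 with single mice left out, and turned to 0.04 and 0.08 without mouse 2 or mouse 3 of the 2% group and to 0.22 without mouse 3 of the 50 ppm group. For BXD against AXB/BXA the count of 10 became 5 by limma on log2(TPM + 1), 4 by limma on log2(TPM + 0.1) and 6 with only the BXD strains with a Ty or TyJ suffix, while the calls over all genes went from 1606 to 906, 917 and 1153; the cause was not tested. Relations past the threshold numbered 7 within AXB/BXA, where fewer strains enter, against 16 over all strains. By limma on log2(TPM + 1), 804 genes were called higher and 404 lower on 2% iron against 50 ppm, where edgeR called 1155 and 972. No paired analysis was possible because the labels give no replicate numbers that tie mice of different groups. Depth limits members under 10 counts in all, which give no comparison. Leaving out the library labelled BXD65/RwwJ kept the number of relations at 16.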

Other observations

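BXH2/TyJ had the lowest level of all 114 strains for H2-Aa (1.32 TPM), H2-Ab1 (0.961 TPM), H2-DMa (0.393 TPM), H2-T10 (0.759 TPM) and the invariant chain Cd74 (6.26 TPM, where the median strain had 74.4). The other 3 BXH strains had 15.9 to 26.1 TPM of H2-Aa and 39 to 92.8 TPM of Cd74. Its H2-Eb1 was 0.897 TPM, against 7.05 to 10.6 TPM in the 3 others, and its Ciita 0.123 TPM, against 0.15 to 0.877 TPM. The class I genes H2-K1 (179 TPM), H2-D1 (159 TPM) and H2-Q10 (379 TPM) and B2m (678 TPM) were also the lowest of the family.

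The dendritic cell and the Kupffer cell marker sums of that liver were the lowest of the 4 BXH strains, and their part in these values was not tested. The dendritic cell markers summed to 4.5 TPM, against 5.6 to 9.85 TPM in the other 3 BXH strains and a median of 5.86 over 114 strains. The Kupffer cell and macrophage markers summed to 295 TPM, against 334.2 to 511.6 TPM and a median of 486. The B cell markers summed to 5.66 TPM, against 5.63 to 15.3 TPM. The strain is 1 mouse, and these values were looked up after its H2-Ab1 value was seen.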
